A study of Homo sapiens with 15 samples.

Results

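The genes described here move iron into, within and out of the cell. They were 10 named genes of iron uptake (TFRC, STEAP3 and SLC11A2), mitochondrial import (SLC25A37), storage (FTH1 and FTL), export (SLC40A1) and regulation (IREB2, ACO1 and FBXL5), chosen by symbol out of 60649 genes in the count table. The symbols were matched through the Ensembl identifiers, and all 10 were measured and passed the filter on low counts. The cells were K562, written K-562 in the labels, an established human line labelled as a myelogenous leukemia cell from bone marrow and derived from chronic myeloid leukaemia in blast crisis. The study asked what martinostat, an inhibitor of histone deacetylases, does to such cells. There were 15 libraries in 5 groups of 3. The groups were untreated cells and cells treated for 24 h with 0.15, 0.25, 0.5 or 1 µM martinostat. All groups were the same line in the same medium, the labels name no vehicle for the untreated cells, and 1 line at 1 time point is what these groups can stand for. Libraries were labelled biological replicates with no statement of how the cultures were kept apart, so p-values measure the spread between these libraries, which may be partly technical.

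Total counts ran from 23755510 to 32805574 a library. Values below are counts per 1000000 (CPM), scaled with TMM factors (a trimmed mean of log ratios between libraries), which were 0.784 to 0.828 in untreated and 0.950 to 1.284 in treated libraries. Of 9 genes that mark K562 as an erythroid leukaemia line, 8 exceeded a mean of 1 CPM in each group. Their summed level was 2221 to 2408 CPM in untreated libraries, 1178 to 1344 at 0.15 µM, 662 to 1034 at 0.25 µM, 216 to 510 at 0.5 µM and 352 to 574 at 1 µM. The 6 megakaryocyte markers summed to 6.5 to 7.34 CPM untreated and 38.4 to 43.2 at 1 µM. The macrophage, T and B cell marker lists summed to at most 64.5, 23.8 and 13.5 CPM in any library. SPIC, a factor of iron-recycling macrophages, was at 0 in untreated cells. The part of these shifts in the results below was not tested. The third replicates at 0.25 and 0.5 µM stood apart from their groups. In them, genes with exons of under 1500 bases in all lay a median of 0.33 and 0.47 below their group mean on the log2 scale. Replicate 3 at 0.15 µM and replicate 2 at 1 µM agreed less with their groups too. The chi-square per degree of freedom of their counts against replicates 1 and 2 was 35 and 40, and against replicates 1 and 3 38.3 and 44.9. It was 11.4 and 6.49 between the remaining replicates of each group. Short genes lay 0.13 above the mean in the former (0.12 below in replicate 2) and 0.15 above in the latter (0.11 below in replicate 3).

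Iron enters dividing cells mainly as transferrin bound to its receptor. It is then reduced, carried out of the endosome and used in mitochondria for haem and iron-sulfur clusters, or packed into the ferritin shell. Iron regulatory proteins 1 (ACO1) and 2 (IREB2) bind a hairpin in target mRNAs, the iron-responsive element (IRE), when iron is scarce. Bound near the start of an mRNA they block its translation, and bound in the 3′ untranslated region (UTR) of the transferrin receptor mRNA they keep it from decay. Erythroid cells take up far more iron than most, since they make haem for haemoglobin.

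The hairpins of the members are shown because they set apart the 2 ways in which the regulatory proteins act on storage and uptake mRNAs. The main (canonical) protein-coding transcript of each gene in GENCODE v44 was searched on its sense strand for an unpaired C, 5 bases, the loop CAGTGN and 5 bases that pair with the first 5, with G-U pairs allowed. Matches were present in 4 of the 10 members and in 258 of 19701 canonical coding transcripts (1.31%). Each sequence is the 30 bases from 12 before the loop to 12 after it, 5′ to 3′ along the mRNA with T for U, and the capitals mark the unpaired C and the loop. FTH1, FTL and SLC40A1 each held 1 match in the 5′ UTR.
FTH1 5′ UTR, chr11:61967573-61967602 (minus strand, hg38): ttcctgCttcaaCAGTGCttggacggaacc
FTL 5′ UTR, chr19:48965335-48965364 (plus strand, hg38): ctcttgCttcaaCAGTGTttggacggaaca
SLC40A1 5′ UTR, chr2:189580660-189580689 (minus strand, hg38): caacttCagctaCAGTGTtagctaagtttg
The 3′ UTR of TFRC held 4 matches, given here in the order of the mRNA.
TFRC 3′ UTR, chr3:196050978-196051007 (minus strand, hg38): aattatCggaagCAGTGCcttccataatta
TFRC 3′ UTR, chr3:196050574-196050603 (minus strand, hg38): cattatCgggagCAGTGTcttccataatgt
TFRC 3′ UTR, chr3:196050509-196050538 (minus strand, hg38): ctgtatCggagaCAGTGAtctccatatgtt
TFRC 3′ UTR, chr3:196050462-196050491 (minus strand, hg38): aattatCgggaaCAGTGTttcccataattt
No match in the other 6 means only that these letters were not in those transcripts.

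The uptake genes were lower and the ferritin genes were higher in cells given 0.5 or 1 µM martinostat than in untreated cells. At 1 µM, the quasi-likelihood test of edgeR, adjusted over 23711 genes by Benjamini-Hochberg, called 6 members lower (TFRC, STEAP3, SLC11A2, SLC25A37, IREB2 and FBXL5) and 3 higher (FTL, FTH1 and ACO1), with SLC40A1 not called. Among all tested genes 27.5% were called lower and 38.8% higher at that dose, and in the 10128 genes that averaged 10 CPM or more, as all members did, 48.4% were lower and 26.5% higher. The member counts were 6 lower and 3 higher at 0.5 µM as well, beside 27.6% and 39.4% of all genes. At 0.25 µM 5 members were lower and 0 higher, beside 24.8% and 37.4%, and at 0.15 µM 5 were lower and 1 higher, beside 19.4% and 31.9%. The shares among genes of at least 10 CPM were computed at 1 µM only, so those at the other doses are of all tested genes. With so many genes called, the counts by themselves set the members little apart, and the sizes and dose patterns are given gene by gene. All 4 comparisons share the untreated libraries. The median member change at 1 µM was -0.69 on the log2 scale, against 0.32 over all tested genes and -0.39 over genes of at least 10 CPM. At 0.15, 0.25 and 0.5 µM it was -0.37, -0.31 and -0.65, against -0.28, -0.40 and -0.37 over genes of at least 10 CPM.

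**Figure D1:**
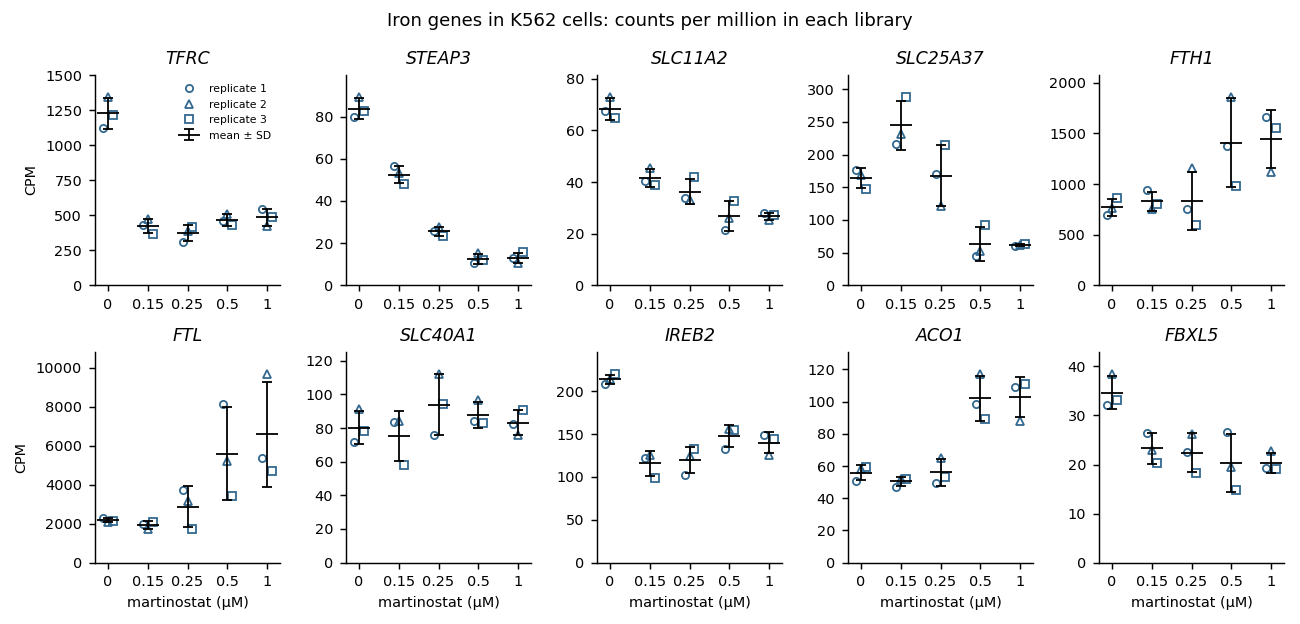
CPM of the 10 iron genes (linear axes from 0) in each of the 15 libraries by martinostat dose in µM, with open symbols for replicates 1 to 3 and bars for mean ± SD of 3 libraries. All treated TFRC values lie below the untreated ones, the FTL values at 0.5 and 1 µM lie above them with a wide spread, and SLC40A1 overlaps throughout.

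TFRC (ENSG00000072274.13, chr3:196012511-196082153 on the minus strand of hg38), the transferrin receptor that brings transferrin-bound iron into the cell, fell at the lowest dose and stayed low. Its CPM were 1125, 1344 and 1216 in untreated libraries, 429, 471 and 368 at 0.15 µM, 308, 391 and 420 at 0.25 µM, 462, 510 and 428 at 0.5 µM and 542, 424 and 487 at 1 µM. No treated library overlapped an untreated one at any dose. The log2 change against untreated was -1.54 ± 0.16 (SE; adjusted p = 3.43e-07) at 0.15 µM, which is 34.4% of the untreated level, and -1.34 ± 0.16 (adjusted p = 7.34e-07) at 1 µM. The difference between 1 and 0.15 µM was 0.20 ± 0.16 (adjusted p = 0.342), so no further fall with dose was detected. TFRC was called lower at all 4 doses in each of 26 alternative settings. In bulk RNA such as this, fewer cells of a kind and less RNA per cell cannot be told apart.

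STEAP3 (ENSG00000115107.20, chr2:119223831-119265652 on the plus strand of hg38), the endosomal reductase that turns ferric into ferrous iron after uptake, fell most among the members at 0.5 and 1 µM. It had 79.8, 89.2 and 82.4 CPM in untreated libraries, 56.4, 53.1 and 48.1 at 0.15 µM, 25.6, 27.6 and 23.6 at 0.25 µM, 10.6, 15.1 and 12.1 at 0.5 µM and 12.8, 10.6 and 15.6 at 1 µM. Up to 0.5 µM each group lay wholly below the one before it, and the groups at 0.5 and 1 µM overlapped. The log2 change against untreated was -0.67 ± 0.16 (adjusted p = 0.0014) at 0.15 µM and -2.69 ± 0.17 (adjusted p = 7.79e-11) at 1 µM, where 15.5% of the untreated level was left. From 0.15 to 1 µM the change was -2.02 ± 0.16 (adjusted p = 1.28e-08). The call at 0.15 µM was lost with library totals as scaling (-0.31, adjusted p = 0.13) and with limma on log2(FPKM + 0.1) (-0.30, adjusted p = 0.118). An antisense gene, STEAP3-AS1, covers 11% of the exon bases of STEAP3, and since the sources used here do not state a strand setting for counting, reads from the 2 genes cannot be told apart there.

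SLC11A2 (ENSG00000110911.17, chr12:50979401-51028566 on the minus strand of hg38), also called DMT1, carries ferrous iron out of the endosome. Its CPM were 67.4, 72.9 and 64.7 in untreated libraries, 40.5, 45.3 and 38.7 at 0.15 µM and 28, 25.3 and 27.2 at 1 µM, with no overlap between these groups. The log2 change was -0.72 ± 0.15 at 0.15 µM (adjusted p = 6.37e-04), -0.91 ± 0.15 at 0.25 µM (adjusted p = 4.22e-05) and -1.35 ± 0.15 at 1 µM (adjusted p = 3.33e-07). The calls at 0.15 and 0.25 µM were lost with library totals (adjusted p = 0.164 and 0.126), limma on log2(FPKM + 1) (0.165 and 0.106) and limma on log2(FPKM + 0.1) (0.21 and 0.138). Those at 0.5 and 1 µM held in all 26 alternatives.

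SLC25A37, or mitoferrin-1, imports iron into the mitochondria of erythroid cells, and its course was not the same at low and high dose. It had 177, 169 and 147 CPM in untreated libraries, 217, 231 and 288 at 0.15 µM, 170, 121 and 214 at 0.25 µM, 45.4, 52.3 and 93 at 0.5 µM and 60.4, 62.3 and 63.4 at 1 µM. The 0.15 µM libraries all lay above the untreated ones, those at 0.25 µM straddled them, and those at 0.5 and 1 µM all lay below. The log2 change was 0.58 ± 0.23 at 0.15 µM (adjusted p = 0.044) and -1.41 ± 0.23 at 1 µM (adjusted p = 4.08e-05). The difference between 1 and 0.15 µM was -1.98 ± 0.24 (adjusted p = 2.50e-06). The rise at 0.15 µM lost its call in 11 of 26 alternatives, among them DESeq2 (0.53, adjusted p = 0.0679) and leaving out any 1 untreated or 1 µM library, replicate 2 or 3 at 0.15 µM or replicate 1 at 0.25 µM, the lowest value being 0.44 (adjusted p = 0.195) without replicate 3 at 0.15 µM. The falls at 0.5 and 1 µM held in all.

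Both ferritin genes rose at the 2 higher doses. FTL (ENSG00000087086.15, chr19:48965309-48966879 on the plus strand of hg38), the ferritin light chain, had 2294, 2068 and 2144 CPM in untreated libraries, 1977, 1723 and 2087 at 0.15 µM, 3722, 3164 and 1716 at 0.25 µM, 8123, 5222 and 3393 at 0.5 µM and 5354, 9653 and 4715 at 1 µM. All 6 libraries at 0.5 and 1 µM exceeded each untreated one, and the spread within these groups was wide. The log2 change was -0.17 ± 0.32 at 0.15 µM (adjusted p = 0.686), 0.40 ± 0.32 at 0.25 µM (adjusted p = 0.284), 1.36 ± 0.32 at 0.5 µM (adjusted p = 0.00126) and 1.60 ± 0.33 at 1 µM (adjusted p = 3.29e-04), the last a 3.03-fold rise. Without the second 1 µM library, the highest of all, the change at 1 µM was 1.22 (adjusted p = 0.00267). The FTL transcript is short, at 871 bases, and its lowest values at 0.25 and 0.5 µM were those of the third replicates, in which short genes read low. Without both, FTL changed by 1.67 at 0.5 µM (adjusted p = 4.11e-04) and 0.69 at 0.25 µM (adjusted p = 0.0615). Short genes read high in the libraries with the highest FTL at 0.25, 0.5 and 1 µM. Their median lay 0.18 and 0.29 above the group mean in replicate 1 at 0.25 and 0.5 µM, and 0.15 above in replicate 2 at 1 µM. The part of this shift in the FTL change was not tested.

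FTH1 (ENSG00000167996.16, chr11:61959718-61967634 on the minus strand of hg38), the ferritin heavy chain that oxidises iron as it enters the shell, had 690, 768 and 860 CPM in untreated libraries, 937, 757 and 802 at 0.15 µM, 758, 1156 and 598 at 0.25 µM, 1380, 1859 and 983 at 0.5 µM and 1662, 1119 and 1555 at 1 µM. Values at the 2 lower doses overlapped the untreated ones and those at the 2 higher doses did not. Its log2 change was 0.11 ± 0.24 at 0.15 µM (adjusted p = 0.742), 0.86 ± 0.24 at 0.5 µM (adjusted p = 0.00435) and 0.90 ± 0.24 at 1 µM (adjusted p = 0.00319), the last a 1.87-fold rise. Its transcript has 1203 bases, and without replicate 3 of both the 0.25 and 0.5 µM groups the change at 0.5 µM was 1.10 (adjusted p = 1.16e-05). Between 1 and 0.15 µM the change was 0.80 ± 0.24 (adjusted p = 0.0123), and this call was lost without the second 0.15 µM library (0.73, adjusted p = 0.0542) or the first 1 µM library (0.68, adjusted p = 0.0599). With library totals as scaling, FTH1 and FTL were called higher at 0.25 µM too, by 0.62 (adjusted p = 0.00952) and 0.90 (adjusted p = 0.0098).

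The FTH1 counts are uncertain in 2 ways. Exons of BEST1 on the opposite strand lie over 63.2% of the FTH1 exon bases, and BEST1 itself had 14 to 347 counts a library, 0.0637% to 0.96% of those of FTH1. The 25 processed FTH1 copies in the table together held 2.74% to 4.81% as many counts as FTH1, led by FTH1P7 (387 to 979 counts) and FTH1P2 (58 to 176). The 16 FTL copies held 0.232% to 0.341% as many as FTL, led by FTLP3 (101 to 751 counts) and FTLP12 (0 to 36). How reads were shared between these copies and their parents cannot be read from the counts.

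SLC40A1 (ENSG00000138449.11, chr2:189560590-189583758 on the minus strand of hg38), or ferroportin, the only known exporter of cellular iron, was not called at any dose in the main fit. Its group means were 80.3 ± 9.93 CPM (SD, n = 3) in untreated cells, 75.3 ± 15 and 93.9 ± 18 at 0.15 and 0.25 µM, and 88 ± 7.8 and 83.1 ± 7.43 at 0.5 and 1 µM. Each treated group overlapped the untreated libraries. The log2 change ran from -0.09 ± 0.17 at 0.15 µM to 0.23 ± 0.17 at 0.25 µM (adjusted p = 0.674 and 0.254). These values depend on the scaling, since library totals gave 0.75 at 0.25 µM (adjusted p = 0.00139) and 0.51 at 0.5 µM (adjusted p = 0.0174). Taken against the median of all tested genes, the change of SLC40A1 at 1 µM was -0.27 with TMM and -0.26 with library totals. A change of scaling moves the median along with the gene, so these values had to be close. The sign depends on the reference. With TMM the median over genes of at least 10 CPM was -0.39 at 1 µM, and the change of SLC40A1, 0.05, lay above it.

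**Figure D2:**
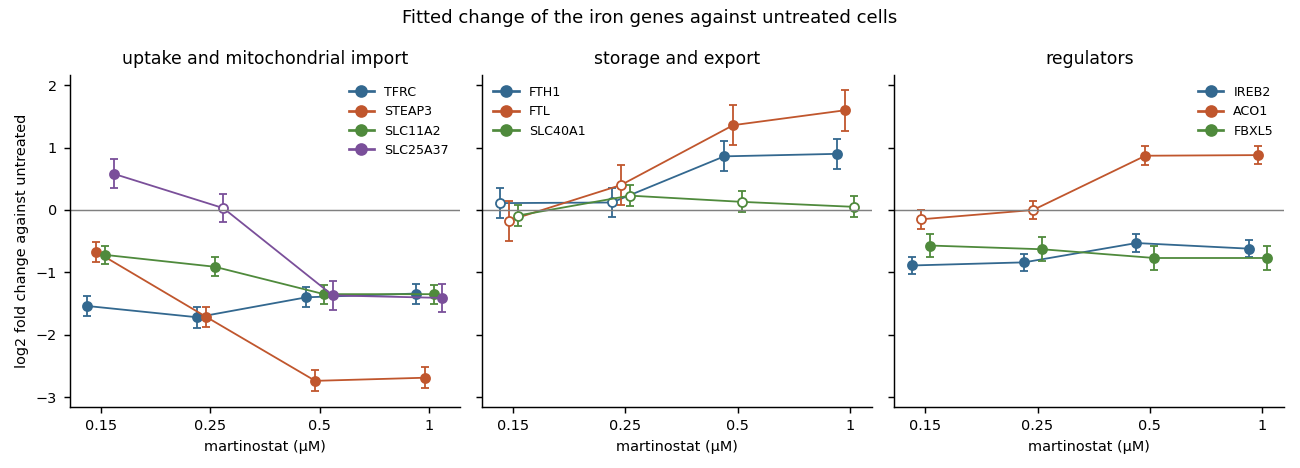
Log2 fold change of each iron gene against untreated cells (vertical axis) by martinostat dose in µM, with error bars for ± 1 SE of the fit, filled points for adjusted p under 0.05 and open points for the rest. TFRC is at -1.54 at the lowest dose already, STEAP3 reaches -2.74 at 0.5 µM, and FTL, FTH1 and ACO1 are filled at 0.5 and 1 µM.

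Of the genes of the regulatory proteins, IREB2 was lower at all 4 doses and ACO1 higher at 0.5 and 1 µM, the former call depending on the scaling. IREB2 (ENSG00000136381.13, chr15:78437431-78501453 on the plus strand of hg38), which encodes iron regulatory protein 2, had 209, 214 and 220 CPM in untreated libraries, 122, 126 and 99.2 at 0.15 µM and 149, 126 and 144 at 1 µM. No treated library reached the untreated range at any of the 4 doses. The log2 change was -0.89 ± 0.14 at 0.15 µM (adjusted p = 3.85e-05), -0.84 ± 0.14 at 0.25 µM (adjusted p = 4.52e-05), -0.53 ± 0.14 at 0.5 µM (adjusted p = 0.00259) and -0.62 ± 0.14 at 1 µM (adjusted p = 7.79e-04). With library totals only the call at 0.15 µM was kept (-0.52, adjusted p = 0.0157), the value at 1 µM being -0.26 (adjusted p = 0.175).

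ACO1 (ENSG00000122729.19, chr9:32384603-32454769 on the plus strand of hg38), whose product is cytosolic aconitase when it holds an iron-sulfur cluster and iron regulatory protein 1 when it does not, had 50.6, 58 and 59.1 CPM in untreated libraries, 47.1, 52.2 and 52.2 at 0.15 µM, 49.3, 65.2 and 53.4 at 0.25 µM, 98.8, 117 and 89.5 at 0.5 µM and 109, 88.2 and 111 at 1 µM. The groups at 0.5 and 1 µM lay wholly above the others. ACO1 changed by -0.15 ± 0.15 at 0.15 µM (adjusted p = 0.425), 0.00 ± 0.15 at 0.25 µM (adjusted p = 0.994), 0.87 ± 0.15 at 0.5 µM (adjusted p = 4.19e-05) and 0.88 ± 0.15 at 1 µM (adjusted p = 3.63e-05), and the calls at 0.5 and 1 µM held in all 26 alternatives. At 0.25 µM it was called higher in 4 of them, among them library totals (0.52, adjusted p = 0.00271).

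FBXL5 (ENSG00000118564.15, chr4:15604381-15681679 on the minus strand of hg38), the iron-sensing subunit that marks both regulatory proteins for degradation, had 32.2, 38.4 and 33.2 CPM in untreated libraries, 26.5, 23 and 20.3 at 0.15 µM and 19.2, 22.7 and 19.1 at 1 µM. All treated libraries lay below the untreated ones. FBXL5 changed by -0.57 ± 0.19 at 0.15 µM (adjusted p = 0.0182) and -0.77 ± 0.19 at 1 µM (adjusted p = 0.00182). The call was lost in 8, 6, 1 and 3 of 26 alternatives in rising order of dose, with -0.21 (adjusted p = 0.326) at 0.15 µM under library totals. Single libraries that ended it were replicate 2 of the untreated group and replicates 2 and 3 at 0.15 µM (adjusted p = 0.0794, 0.0502 and 0.0748), and replicate 3 at 0.25 µM for that dose (adjusted p = 0.0536).

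Of the steps between neighbouring doses, that from 0.25 to 0.5 µM had the most member calls. From 0.15 to 0.25 µM 1 member was called, STEAP3 (-1.04 ± 0.16, adjusted p = 4.31e-04), beside 12.3% of all genes in either direction. From 0.25 to 0.5 µM 6 were called, beside 30.4% of all genes. STEAP3, SLC11A2 and SLC25A37 fell by 1.03, 0.44 and 1.40 on the log2 scale (adjusted p = 7.52e-05, 0.0371 and 1.74e-04), and FTH1, FTL and ACO1 rose by 0.75, 0.96 and 0.86 (adjusted p = 0.0254, 0.0306 and 1.77e-04). Without the second 0.5 µM library 3 were called, beside 2605 genes higher and 3205 lower of 24825. The values of SLC11A2, FTH1 and FTL were then -0.41, 0.49 and 1.00 (adjusted p = 0.104, 0.168 and 0.0581). Same-numbered libraries of these 2 groups deviated together, and a fit of them alone with the replicate block called TFRC (0.32 ± 0.11, adjusted p = 0.0268) and IREB2 (0.30 ± 0.09, adjusted p = 0.016) higher as well, 8 members in all. That fit also called more of all genes, 4871 higher and 5064 lower of 21562, against 3409 and 3802 of 23711 in the main fit. From 0.5 to 1 µM edgeR called 0 members and 0% of all genes, with 372 genes at an unadjusted p under 0.05, and DESeq2 also called 0 members. From 0.15 to 1 µM 3 members were higher (FTL, FTH1 and ACO1) and 3 lower (STEAP3, SLC11A2 and SLC25A37), beside 21.5% and 23.1% of all genes.

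Per kilobase of the canonical transcript, the mean level in untreated cells was 2490 ± 132 CPM (SD, n = 3) for FTL, 642 ± 70.3 for FTH1 and 245 ± 21.9 for TFRC. SLC25A37 (35.2 ± 3.39) and IREB2 (33.9 ± 0.887) followed and did not differ beyond their spread, then SLC40A1 (24.1 ± 2.98), STEAP3 (19.7 ± 1.14), SLC11A2 (16.5 ± 1.01), FBXL5 (9.92 ± 0.962) and ACO1 (7.51 ± 0.62). At 1 µM the same scale gave 7548 ± 3084 for FTL, 1201 ± 239 for FTH1 and 96.7 ± 11.8 for TFRC. STEAP3 was then last at 3.05 ± 0.59, and ACO1 (13.8 ± 1.69) and SLC25A37 (13.3 ± 0.324) did not differ beyond their spread. The FTH1 level carries the overlap with BEST1, whose exons lie over 73.2% of the bases of this transcript. How far it moved the FTH1 level, and so its place beside FTL, was not tested.

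Ratios within a library need no scaling between libraries, and the 2 given in full here were chosen from those computed after the values were seen. The counts of FTL divided by those of TFRC were 2.04, 1.54 and 1.76 in untreated libraries, 4.61, 3.66 and 5.67 at 0.15 µM, 12.1, 8.09 and 4.08 at 0.25 µM, 17.6, 10.2 and 7.93 at 0.5 µM and 9.88, 22.8 and 9.68 at 1 µM. All 12 treated libraries exceeded each untreated one, and the mean at 1 µM was 7.92 times the untreated mean, raised by the value of 22.8 in replicate 2. The transcripts differ in length, 871 bases for FTL and 5012 for TFRC, so the shift of short genes between libraries given above can enter this ratio. Its part was not tested. The counts of IREB2 divided by those of ACO1 were 4.12, 3.69 and 3.72 in untreated libraries, 2.59, 2.42 and 1.9 at 0.15 µM and 1.36, 1.43 and 1.3 at 1 µM, with no overlap. A two-sided exact permutation test gave p = 0.1 for either ratio at each dose, which is the smallest p that 3 against 3 libraries allow.

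**Figure D3:**
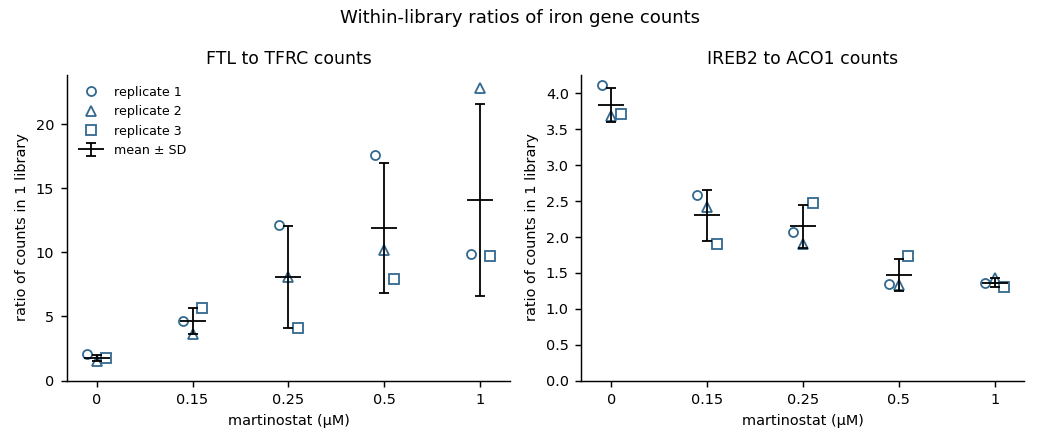
Ratio of the counts of 2 iron genes in the same library (linear vertical axes from 0) by martinostat dose in µM, with open symbols for replicates 1 to 3 and bars for mean ± SD of 3 libraries. The FTL to TFRC ratio is 1.54 to 2.04 in untreated libraries and 9.68 to 22.8 at 1 µM, and the IREB2 to ACO1 ratio goes from 3.69 to 4.12 down to 1.3 to 1.43.

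A list of 57 other genes of iron handling gave a wider view, and 53 of them passed the filter. At 1 µM 29 were called lower and 11 higher, with a median log2 change of -0.61. STEAP2 and TMPRSS6 were at 0 in all untreated libraries, so the size of their fitted rise depends on the prior count of the fit, but any rise places them above this median. Of the 43 that averaged 10 CPM or more, 29 were lower and 4 higher, beside the 48.4% and 26.5% of all genes at that level given above. At 0.15 µM 24 of the 53 were lower and 12 higher, beside 19.4% and 31.9% of all tested genes. With library totals 12 were lower and 17 higher, and over all tested genes the calls moved the same way, from 4591 lower and 7557 higher to 2118 and 9582.

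The counts by role that follow stand beside 27.5% lower and 38.8% higher of all tested genes at 1 µM, and 48.4% lower and 26.5% higher of those averaging 10 CPM or more, and they were not tested against either. Among the 10 tested genes of uptake and reduction, 5 were lower and 3 higher at 1 µM. LRP1, a receptor that also takes up haem bound to haemopexin, went from 10.3, 9.31 and 12.3 CPM to 505, 337 and 525, a log2 change of 5.42 ± 0.24 (adjusted p = 1.04e-12). CYBRD1, a ferric reductase, went from 27.9 to 3.99 CPM (-2.81 ± 0.20, adjusted p = 5.05e-10), and SLC39A8, a zinc and iron importer, from 330 to 62.6 CPM (-2.40 ± 0.18, adjusted p = 8.91e-10). Of 15 tested genes of mitochondrial iron and iron-sulfur clusters, 9 were lower and 0 higher, which is read only beside those shares. ABCB10, an inner membrane transporter that binds mitoferrin-1, changed by -2.45 ± 0.18, and LYRM4, a partner of the cysteine desulfurase, by -1.70 ± 0.24 on the log2 scale (adjusted p = 7.39e-10 and 5.16e-06).

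Of 4 tested genes of storage and ferritin turnover 2 were lower and 2 higher, and PCBP2, which delivers iron to ferritin, was the only one of at least 10 CPM on average with a call in 1 direction throughout (-0.70 ± 0.16 at 1 µM, adjusted p = 6.92e-04). Of 9 tested genes of export and haem 5 were higher and 2 lower at 1 µM. The 5 that were higher (HAMP, FLVCR2, HJV, BMP6 and TMPRSS6) had untreated means of at most 0.605 CPM, and they are named after their values were seen. So is HEPH, hephaestin, a ferroxidase that works with ferroportin, which went from 189 to 26.6 CPM (-2.83 ± 0.18, adjusted p = 1.05e-10).

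Of 10 partners of the regulators 7 were lower and 0 higher at 1 µM, beside 48.4% and 26.5% of all genes averaging 10 CPM or more, as each of the 10 did. CUL1 and RBX1, which form the ubiquitin ligase with FBXL5, changed by -3.04 ± 0.15 and -1.77 ± 0.19 (adjusted p = 2.94e-12 and 1.03e-07). CIAO2A, which takes part in iron-sulfur delivery to iron regulatory protein 1, changed by -2.28 ± 0.15 (adjusted p = 1.19e-10). SKP1, another partner in that ligase named after its value was seen, was at 0.00 on the log2 scale and not called. Of the 5 other mRNAs known for an IRE, 4 were lower and EPAS1, a hypoxia-inducible factor subunit, was higher at 1 µM (0.99 ± 0.16, adjusted p = 2.46e-05). CDC14A, a phosphatase, changed by -1.15 ± 0.18 (adjusted p = 1.35e-05). ALAS2, the first enzyme of haem synthesis in erythroid cells, is named after its values were seen. It was not called at 0.15 or 0.25 µM (0.46 and -0.38, adjusted p = 0.0901 and 0.14) and changed by -2.89 ± 0.24 at 0.5 µM and -2.70 ± 0.24 at 1 µM (adjusted p = 4.77e-09 and 1.02e-08). The summed erythroid markers given above were already lower at 0.15 µM, where ALAS2 was not called and SLC25A37 was called higher, and at 0.5 and 1 µM all of these were lower. The part of the marker shift in either gene's change was not tested.

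**Figure D4:**
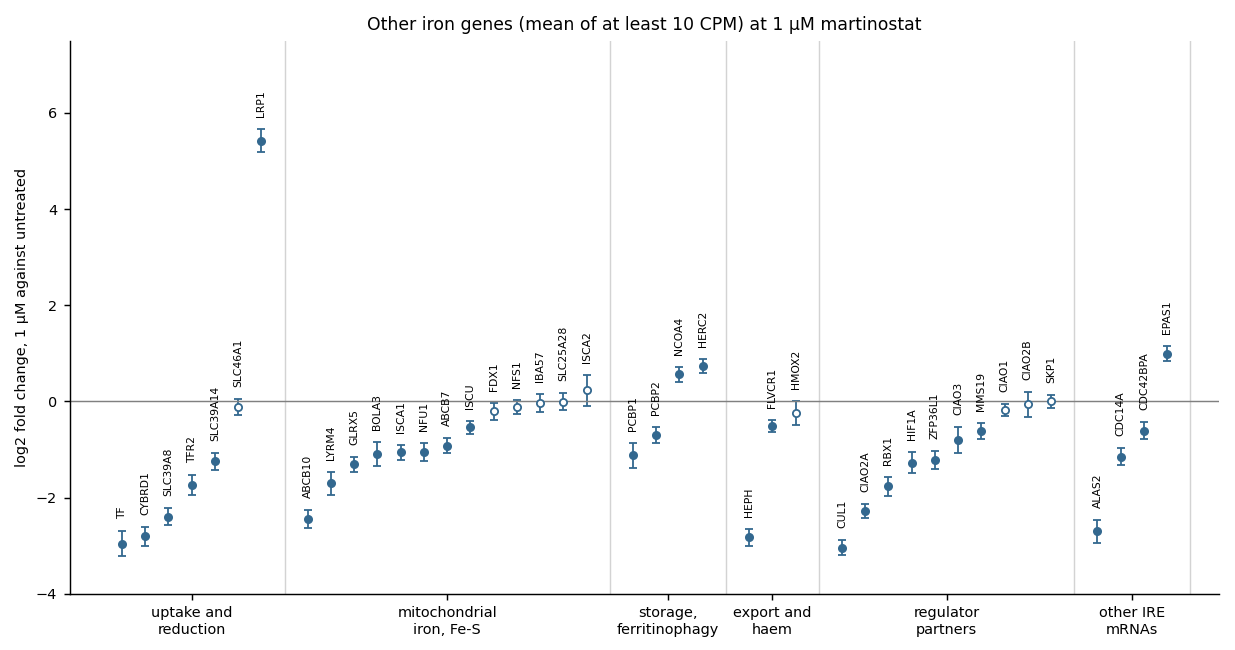
Log2 fold change at 1 µM martinostat against untreated (vertical axis) of 41 of the 43 other iron genes that averaged 10 CPM or more, grouped by role along the horizontal axis, with error bars for ± 1 SE, filled points for adjusted p under 0.05 and open points for the rest. LRP1 at 5.42 stands above all others, and 27 filled points lie below 0.

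The genes whose log2 CPM followed TFRC most closely over the 15 libraries, out of 10127 with at least 10 CPM, were SBDS (Pearson r = 0.989), RRN3 (0.987) and FASTKD5 (0.987). For FTH1 they were PPDPF (0.966), ZNF687 (0.961) and MARK4 (0.960). These are descriptions with no test, since the points share 5 dose groups and the libraries' scaling.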

How the data were processed

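Poly(A) RNA of 15 K562 libraries was sequenced as paired ends. Per the labels and the study's methods, the authors trimmed reads with Trim Galore 0.6.10 and Trimmomatic, aligned them to hg38 with HISAT2 2.2.1, sorted them with SAMtools 1.21 and counted fragments per GENCODE gene with featureCounts 1.5.3. The deposited table holds their raw counts per gene, not normalised. The deposited FPKM tables hold the authors' fragments per kilobase of a gene length and 1000000 counted fragments, and were used only as an alternative. The strand setting of counting is not given in the sources used here.

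Symbols came from GENCODE v44 through the Ensembl identifier without its version (60463 of 60649 genes matched, 99.7%). Genes were kept by edgeR's filterByExpr (23711), scaled by TMM and tested with the robust quasi-likelihood test in 1 fit of all 15 libraries (edgeR 4.0.16, R 4.3.3), with Benjamini-Hochberg adjustment over all tested genes and calls at an adjusted p under 0.05. The standard error is the log2 change divided by the square root of the F value. The script was first tested on simulated data. The wide spread of FTL and FTH1 at the higher doses limits their precision more than depth does. Alternatives were RLE factors, library totals, TMM over genes of at least 10 CPM, no filter, at least 10 counts in every library, DESeq2 1.42.0, only the compared groups, a replicate block, limma 3.58.1 on log2(FPKM + 1) and log2(FPKM + 0.1), and each library left out. A fold change on a log2(FPKM + pseudocount) scale understates the change of low genes. Added after the data were seen were a fit without replicate 3 of the 0.25 and 0.5 µM groups and a blocked fit of the 0.25 and 0.5 µM libraries alone.

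Replicate numbers come from the labels, which do not say that they pair. After group means were subtracted, libraries of equal number correlated by 0.685, 0.699 and 0.866 between 0.25 and 0.5 µM. In every other pair of groups at least 1 of the 3 correlations was at or below 0.1. The main fit took no library as paired, and only the blocked fits did.

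The members and gene lists were chosen with earlier results of these data known. Named beside the members, by rule, were up to 3 other iron genes per role (at least 10 CPM, with calls at all 4 doses that shared a direction, by size at 1 µM), the 2 most counted copies of each ferritin gene and the 3 genes most correlated with TFRC and FTH1. The values of 2 of the other iron genes are not reported here, and the counts of genes called include them. No protein sequences were used here.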

Additional observations from a re-analysis of the deposited data

How the results depend on the processing

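Over 50 member values (10 genes, 4 doses against untreated and 1 against 0.15 µM) and 26 alternatives each, 23 of 35 calls were kept in all. Scaling moved the level against which changes are read: the median change of all tested genes was, in rising order of dose, 0.28, 0.32, 0.34 and 0.32 with TMM and 0.64, 0.85, 0.72 and 0.67 with library totals. Relative to that median, the changes of members at 1 µM under the 2 scalings lay within 0.01 of each other (TFRC -1.66 in both, FTL 1.28 in both). A change of scaling shifts every gene by nearly the same amount, so taking the median away returns nearly the same value. This agreement was thus fixed in advance and says nothing on how firm the changes are. Members higher and lower at 0.15 µM were 1 and 5, against 2 and 2 with library totals, 3 lower with log2(FPKM + 1), 2 lower with log2(FPKM + 0.1), and 0 higher with RLE or DESeq2. At 0.25 µM they were 0 and 5, against 4 and 2 with library totals and with either FPKM scale, 4 and 4 with TMM over genes of at least 10 CPM, and 1 higher with at least 10 counts in every library. Calls over all 23711 tested genes moved too. At 0.15 µM they went from 7557 higher and 4591 lower to 9582 and 2118 with library totals. At 0.25 µM they went from 8873 and 5888 to 11697 and 3067. Other iron genes lower at 0.15 µM fell from 24 to 12 with library totals, 12 and 11 with FPKM, and at 0.25 µM from 28 to 15 with library totals, 18 with TMM over genes of at least 10 CPM and 15 with FPKM, where 17 rather than 11 were higher. With at least 10 counts in every library, 6 and 7 rather than 11 were higher at 0.5 and 1 µM, fewer genes being tested. Leaving out 1 library gave 0 to 1 member higher at 0.15 µM, 1 to 2 called from 0.15 to 0.25 µM (2 without the third 0.5 µM library) and 3 to 6 from 0.25 to 0.5 µM, the 3 without the second 0.5 µM library. Only the compared groups gave 3 there, with fewer libraries in the fit. From 0.15 to 0.25 µM, 2 members were called without a filter and without replicate 3 of the 0.25 and 0.5 µM groups. The replicate block over all libraries called 3 members higher and 6 lower at 1 µM and 6 from 0.25 to 0.5 µM, and moved no count by over 1.5 times. Values that changed sign were all uncalled: SLC25A37 at 0.25 µM (0.03, but -0.01 with the block, -0.15 without replicate 3 of both the 0.25 and 0.5 µM groups, and from -0.16 to 0.22 with 1 library left out, -0.05 without untreated replicate 3), FTH1 at 0.25 µM (0.12, but from -0.19 without the second 0.25 µM library to 0.33 without the third), and SLC40A1 at 1 µM (0.05, but -0.03 without the first untreated and -0.02 without the third 1 µM library). At 0.15 µM, library totals, TMM over genes of at least 10 CPM, at least 10 counts in every library, log2(FPKM + 1) and log2(FPKM + 0.1) gave 0.19, 0.10, 0.01, 0.19 and 0.19 for FTL (-0.17), 0.28, 0.18, 0.08, 0.19 and 0.24 for SLC40A1 (-0.09, and from -0.18 to 0.06 with 1 library left out, 0.01 without the second untreated library) and 0.21, 0.12, 0.03, 0.09 and 0.19 for ACO1 (-0.15). ACO1 at 0.25 µM, at 0.00, ran from -0.13 to 0.52 and was called higher in 4 alternatives. Where not named, the cause was not tested.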
